A study of Rattus norvegicus with 6 samples.

Results

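Matrix metalloproteinases and their tissue inhibitors were followed in whole-lung RNA of rats as a set of 10 genes, taken from the count table by symbol: Mmp2, Mmp3, Mmp7, Mmp9, Mmp12, Mmp14, Mmp19, Timp1, Timp2 and Timp3. All 10 were among the 22835 genes of the table, and 9 had enough reads to be tested, Mmp3 being the exception. The lungs came from 6 female rats, 12 weeks old and on the SD background, with 3 animals per genotype. In the ND1_cKO rats (ND1Sftpc-cre), Cre under the Sftpc promoter removed the stop in front of DdCBE-ND1, a base editor directed at ND1 in mitochondrial DNA, in the surfactant-making epithelium. The controls (ND1LSL) were littermates with the silent LSL-DdCBE-ND1 allele by the series description, although the sample labels name them WT. Both genotypes thus share the editor allele by that description, and Cre, the active editor and the ND1 edit differ together between them and cannot be told apart.

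Matrix metalloproteinases (MMPs) are zinc-dependent enzymes that are made as inactive proenzymes and, once activated, cut collagen, elastin, basement membrane and cell-surface proteins. Tissue inhibitors of metalloproteinases (TIMPs) bind the active site and block it, and TIMP2 has a double role because MMP14 at the cell surface uses it as an adaptor to bring in and activate the proenzyme of MMP2. In the lung, MMP12 is known as the elastase of macrophages, MMP9 as a gelatinase carried by neutrophils, MMP7 as an epithelial enzyme raised in pulmonary fibrosis, and TIMP1 as a secreted inhibitor induced in injury and fibrosis. Transcript counts say nothing of proenzyme activation or of inhibition at the protein level.

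RefSeq promoter windows (GRCr8, 250 bases before to 50 after the gene start) were matched by symbol for 6 of the 10 genes, namely Mmp3, Mmp7, Mmp12, Timp1, Timp2 and Timp3. The first 3 are shown with Timp1 because exact motif matches differed between the matched metalloproteinases and the matched inhibitors. Mmp12 (chr8:12866402-12866701, plus strand), Mmp3 (chr8:12925031-12925330, plus strand) and Mmp7 (chr8:13132793-13133092, plus strand) begin within 266 kb of each other on chromosome 8. Timp1 lies on the X chromosome (chrX:3771073-3771372, minus strand). Each window is written 5′ to 3′ along its gene, and capitals mark every match, on either strand, to the AP-1 site TGANTCA or to the TATA box TATAAA, which do not overlap here.
Mmp3: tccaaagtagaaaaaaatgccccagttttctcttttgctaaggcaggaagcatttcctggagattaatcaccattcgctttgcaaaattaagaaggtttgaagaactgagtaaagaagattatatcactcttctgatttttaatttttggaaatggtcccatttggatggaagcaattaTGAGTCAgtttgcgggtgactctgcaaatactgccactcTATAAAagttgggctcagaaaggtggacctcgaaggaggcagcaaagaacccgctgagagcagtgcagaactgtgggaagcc
Mmp7: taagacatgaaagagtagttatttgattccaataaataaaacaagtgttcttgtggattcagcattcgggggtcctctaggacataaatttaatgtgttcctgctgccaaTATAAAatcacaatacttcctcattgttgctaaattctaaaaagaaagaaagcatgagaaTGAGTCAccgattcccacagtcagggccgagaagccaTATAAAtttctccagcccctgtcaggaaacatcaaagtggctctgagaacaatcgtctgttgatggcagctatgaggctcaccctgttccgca
Mmp12: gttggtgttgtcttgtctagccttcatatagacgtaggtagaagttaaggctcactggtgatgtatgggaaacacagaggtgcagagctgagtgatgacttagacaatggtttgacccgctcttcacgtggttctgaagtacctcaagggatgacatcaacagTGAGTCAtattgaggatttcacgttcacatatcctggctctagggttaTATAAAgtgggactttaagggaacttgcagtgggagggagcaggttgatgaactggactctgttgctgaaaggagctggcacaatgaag
Timp1: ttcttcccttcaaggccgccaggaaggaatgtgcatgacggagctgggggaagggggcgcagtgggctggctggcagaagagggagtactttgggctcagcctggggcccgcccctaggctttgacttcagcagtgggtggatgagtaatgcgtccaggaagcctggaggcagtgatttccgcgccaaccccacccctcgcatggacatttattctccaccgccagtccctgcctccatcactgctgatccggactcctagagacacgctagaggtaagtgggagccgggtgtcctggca
An AP-1 match began at -71 in Mmp3, -80 in Mmp7 and -87 in Mmp12, counted from the gene start. The nearest TATA match downstream of it began at -32, -43 and -39, and Mmp7 held another at -140. The 3 Mmp windows all held exact matches to both motifs, and of the 3 Timp windows 0 held an exact match to either. Near matches were not marked, such as tgagtaa in the Timp1 window, so a lack of AP-1 sites in the Timp windows is not shown. Over all 33469 promoter windows of the same length, 7.33% held the AP-1 letters and 14.2% the TATA letters. These matches are a description of the windows; whether any factor binds there was not measured.

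Between 28669995 and 38303274 counts were assigned per library. Levels are given as CPM, read counts relative to library size, scaled with TMM factors, and since no transcript lengths were used, a level is compared only with the same gene in other libraries. The targeted gene ND1 had 2680, 2430 and 3080 CPM in control replicates 1, 2 and 3 and 3680, 3430 and 3740 CPM in ND1_cKO replicates 1, 2 and 3 (edgeR adjusted p = 0.125), and counts do not show the edit. The lung epithelial genes Sftpc, Sftpa1, Ager and Scgb1a1 were abundant in every library, with a lowest level of 857 CPM for Ager in ND1_cKO replicate 3. That library stood farthest from the controls, with a chi-square per degree of freedom of 150 to 189 against them, where the other ND1_cKO libraries had 75.5 to 105. Values without it are given beside the results that it moves most.

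All 9 tested genes had higher mean levels in ND1_cKO than in control lung, with log2 fold changes from 0.23 for Timp2 to 1.70 for Timp1 and a median of 1.09, against a median of 0.01 over all 16548 genes tested, of which 51.9% were positive. The members were chosen with earlier results of these data known, so this contrast with all genes is a description only. Timp1, Mmp12, Mmp7, Mmp14 and Mmp2 were higher by more than 2-fold on average, and the other tested members by less. By edgeR's quasi-likelihood test with Benjamini-Hochberg adjustment over all genes, 0 of the 9 passed an adjusted p of 0.05, where 2.42% of all genes passed (1.14% as higher and 1.28% as lower). At an unadjusted p below 0.05, 4 of the 9 were found, namely Mmp2, Mmp14, Timp1 and Mmp12, beside 21.4% of all genes. DESeq2 called Mmp2, Mmp14 and Timp1 as higher, 3 of 9 beside 6.09% of all genes called higher by that tool, while limma-voom called 0 with and without library weights. The libraries of the genotypes did not overlap for 5 of the 9 (Mmp2, Mmp14, Mmp12, Timp1 and Timp2), all higher in ND1_cKO, beside 14.1% of all genes. Of the 9, 8 had their highest ND1_cKO level in replicate 3 and 8 their lowest in replicate 2. Omitting ND1_cKO replicate 3 gave a median log2 fold change of 0.66 for the 9, and omitting the third control gave 0.71.

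**Figure D1:**
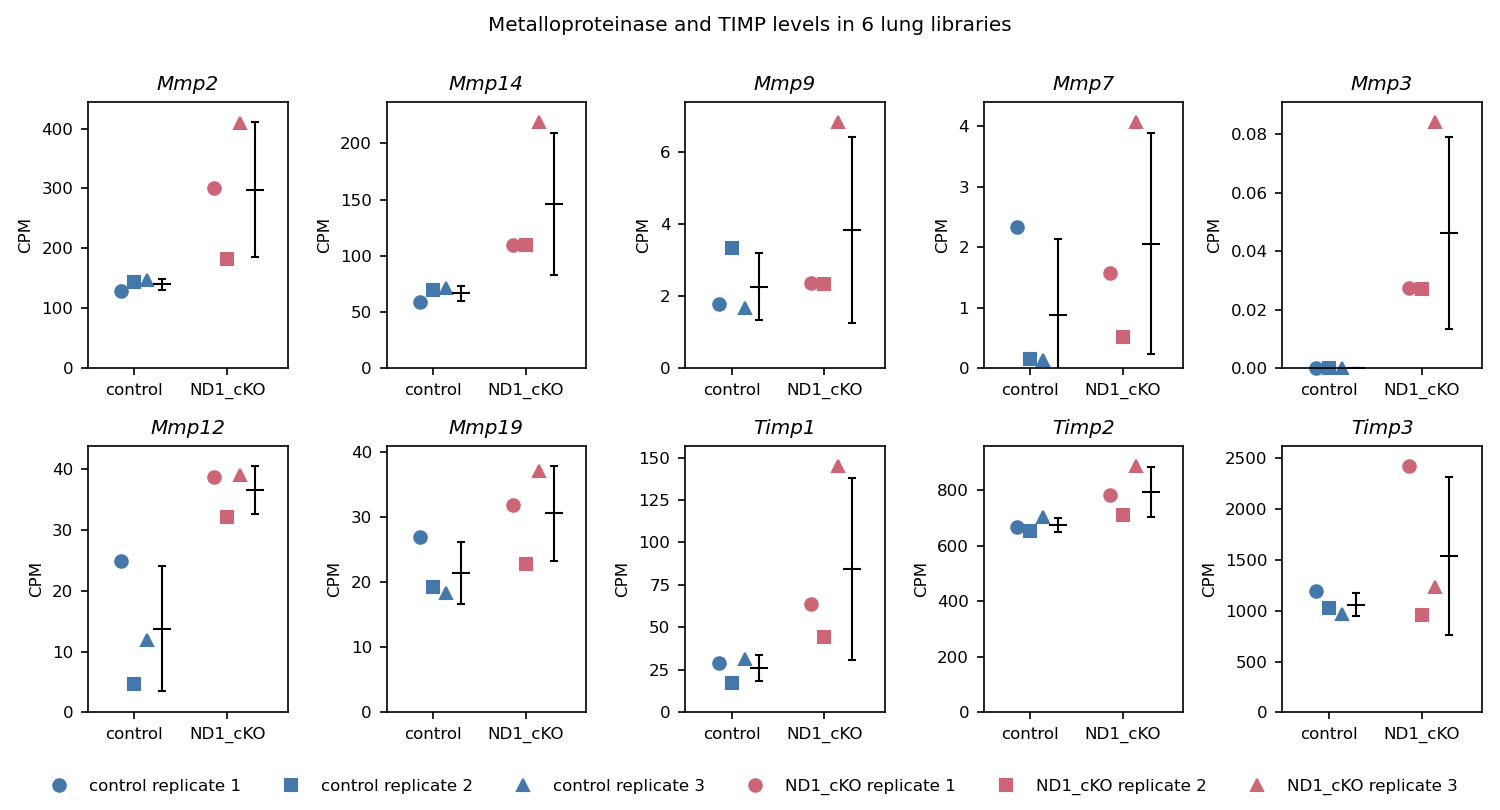
Level of each gene in CPM in the 6 libraries (points, 3 per genotype), with the mean and SD as a bar at the right of each group; lower ends of bars below 0 are not drawn. ND1_cKO replicate 3 (red triangle) is the highest library for every gene except Timp3, where replicate 1 reached 2420 CPM.

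Mmp2 and Mmp14 form the cell-surface activation pair. Mmp2, the gelatinase of mesenchymal cells that cuts basement membrane collagen, had 129, 144 and 147 CPM in control replicates 1, 2 and 3 and 300, 183 and 410 CPM in ND1_cKO replicates 1, 2 and 3. Every ND1_cKO library lay above every control, the closest being replicate 2 at 1.25 times the highest control. Controls differed among themselves by 1.14 times and ND1_cKO libraries by 2.24 times. The mean went from 140 ± 9.43 to 298 ± 113 CPM (SD, n = 3 rats each), a 2.13-fold difference (log2 1.09 ± 0.27 SE, edgeR adjusted p = 0.0864). DESeq2 gave an adjusted p of 0.000728 for the same gene, and edgeR called it without ND1_cKO replicate 2 (1.33 ± 0.15, adjusted p = 0.0248). Without ND1_cKO replicate 3 the edgeR value was 0.78 ± 0.20 and did not pass (adjusted p = 0.0925). Over the 14 alternatives for Mmp2 the adjusted p ran from 0.000728 to 0.233.

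Mmp14, the membrane-anchored collagenase that activates the MMP2 proenzyme, had 59.0, 69.7 and 71.7 CPM in the controls and 110, 110 and 219 CPM in ND1_cKO. Replicates 1 and 2 of ND1_cKO were alike, replicate 3 was far above them, and the lowest of them was 1.53 times the highest control. The fitted difference was 2.19-fold (log2 1.13 ± 0.28 SE, n = 3, edgeR adjusted p = 0.0895). Without replicate 3 the difference was smaller but less variable, at 0.71 ± 0.11, and passed (adjusted p = 0.0263). With DESeq2 the adjusted p was 0.0008, and the highest over the 14 alternatives was 0.231.

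Genes of fibroblasts, which are known to make MMP2, MMP14 and TIMPs, are given beside these values. Of 9 fibroblast markers tested, 6 were higher and 3 lower in ND1_cKO, with a median log2 fold change of 0.25. EdgeR called 0 and DESeq2 1, and 2 had an unadjusted edgeR p below 0.05, beside 21.4% of all genes. Their summed level was 1230 to 1350 CPM in controls and 1670, 1080 and 2080 CPM in ND1_cKO replicates 1, 2 and 3. Replicate 2 thus lay below every control for the fibroblast sum and above every control for Mmp2 and Mmp14. Most of this sum was Dpt, Col6a1, Col6a2 and Pdgfra, and single markers differed. In replicate 2, Dpt and Tcf21 were below every control, at 208 and 57.3 CPM. Lum and Fbln1 were above every control there, at 14.7 and 112 CPM. Lum was at 1.34 ± 0.35 on the log2 scale (adjusted p = 0.0975), Col6a2 at 0.73 ± 0.30 (adjusted p = 0.226) and Col6a1 at 0.73 ± 0.31 (adjusted p = 0.244). The 3 lower markers were Tcf21 at -0.34 ± 0.23 (adjusted p = 0.451), Pdgfra at -0.17 ± 0.27 (adjusted p = 0.757) and Dpt at -0.13 ± 0.16 (adjusted p = 0.673). In whole-lung RNA, a change in the number of cells of a type and a change in the RNA of each cell cannot be told apart. The part of cell composition in the levels of Mmp2, Mmp14 and Timp1 was not tested.

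Mmp9, a gelatinase of neutrophils and macrophages, was present at low levels, with 1.78, 3.35 and 1.69 CPM in the controls and 2.37, 2.34 and 6.85 CPM in ND1_cKO. Both genotypes overlapped, since control replicate 2 exceeded 2 of the 3 ND1_cKO libraries. The log2 difference was 0.76 ± 0.51 SE (adjusted p = 0.439) and 0.04 without ND1_cKO replicate 3. The neutrophil genes S100a8 and S100a9 were also highest in that library, at 39.6 and 103 CPM, against at most 21.3 and 50.1 CPM in the other 5. Csf3r and Cxcr2 were highest there as well. Camp and Ngp went the other way and were lowest in that library, at 0.73 and 0.168 CPM. Of 7 neutrophil markers tested 6 were higher, with 0 called and 0 at an unadjusted p below 0.05. Their median log2 fold change was 0.35, against -0.02 over the 8 markers tested without ND1_cKO replicate 3. Their summed level was 322 to 704 CPM in controls and 655 to 841 CPM in ND1_cKO, most of it Lcn2, which epithelium also makes. Lcn2 was at 0.76 ± 0.38 on the log2 scale (adjusted p = 0.311). Among the defining granule genes, Ltf had 0 counts in 5 libraries and 1 in the sixth. Mpo had 30, 11 and 2 counts in controls and 3, 5 and 0 in ND1_cKO. The part of neutrophils in the Mmp9 level was not tested.

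Mmp7, the epithelial matrilysin, was scarce and varied more than any other tested member in the controls. It had 89, 6 and 4 counts in control replicates 1, 2 and 3 and 58, 19 and 145 counts in ND1_cKO, which correspond to 2.33, 0.162 and 0.138 CPM and to 1.58, 0.516 and 4.07 CPM. Control replicate 1 was above ND1_cKO replicates 1 and 2, so the genotypes overlapped. The log2 fold change of 1.20 ± 1.18 SE (adjusted p = 0.603) was 3.74 without control replicate 1 (adjusted p = 0.125) and 0.23 without ND1_cKO replicate 3 (adjusted p = 0.951). Of 11 epithelial markers, 4 rose and 0 fell by edgeR, among them the keratin genes Krt7 (0.86 ± 0.09, adjusted p = 0.0162), Krt19 (0.70 ± 0.10, adjusted p = 0.0295) and Krt8 (0.64 ± 0.10, adjusted p = 0.0317). Omitting ND1_cKO replicate 1, or the second or the third control, left 0 of them called. Omitting the first control left 1, omitting ND1_cKO replicate 2 left 2, the replicate block left 1, and the median over the list was 0.34. Sftpc, a surfactant protein gene of alveolar type II cells, and Ager, a marker of type I cells, had lower values in ND1_cKO. Sftpc had 15500, 12900 and 13700 CPM in controls and 8810, 10400 and 5300 CPM in ND1_cKO (log2 -0.78 ± 0.24, adjusted p = 0.133). Ager had 1590, 1900 and 1900 CPM in controls and 1180, 1510 and 857 CPM in ND1_cKO (log2 -0.60 ± 0.21, adjusted p = 0.159). Neither passed by edgeR, the genotypes did not overlap for either, and DESeq2 called 2 of the 11 epithelial genes lower and 5 higher. Sftpa1, another surfactant protein gene, went the other way. It had 7600, 7230 and 6580 CPM in controls and 11500, 12900 and 8670 CPM in ND1_cKO, without overlap. Its log2 fold change was 0.63 ± 0.17 (edgeR adjusted p = 0.0961). In control replicate 1, where Mmp7 was high, Krt7, Krt8 and Krt19 had 201, 206 and 293 CPM, and the highest values of the other controls were 210, 195 and 321 CPM. The summed epithelial level was 29200 to 32700 CPM in controls and 24500 to 33800 CPM in ND1_cKO. Most of it was Sftpc, Sftpa1 and Scgb1a1, so the keratin genes weigh little in this sum. The part of epithelial cells in the Mmp7 level was not tested.

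Mmp3, stromelysin 1, stood at the limit of counting. It had 0 counts in each control library and 1, 1 and 3 counts in ND1_cKO replicates 1, 2 and 3. A floor of 3 counts per library equals 0.0786 to 0.103 CPM at these depths, so every library was at or under it and no fold is given. A difference in Mmp3 was not detectable at this depth, which is a statement about counting error only. Its close relative Mmp10, with which it may share reads, had 0, 0 and 0 counts in controls and 0, 1 and 1 in ND1_cKO.

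Mmp12, the macrophage elastase, had 24.9, 4.70 and 11.9 CPM in control replicates 1, 2 and 3 and 38.7, 32.1 and 39.1 CPM in ND1_cKO. Here the spread lay in the controls, which differed by 5.30 times, while the ND1_cKO libraries differed by 1.22 times. The genotypes did not overlap, and the lowest ND1_cKO library was 1.29 times control replicate 1. Mean levels were 13.8 ± 10.2 and 36.6 ± 3.91 CPM (SD, n = 3), a 2.64-fold difference (log2 1.40 ± 0.55 SE, edgeR adjusted p = 0.215). The log2 fold change was 2.15 without control replicate 1 (adjusted p = 0.0768) and 0.99 without control replicate 2 (adjusted p = 0.248).

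Macrophage markers are given beside Mmp12. Trem2, a lipid receptor of recruited macrophages, had 30.1, 8.88 and 5.47 CPM in control replicates 1, 2 and 3 and 57.2, 64.6 and 49.5 CPM in ND1_cKO (log2 1.94 ± 0.62, adjusted p = 0.153). Control replicate 1 was the highest control for Trem2 as for Mmp12, but within ND1_cKO replicate 2 was highest for Trem2 and lowest for Mmp12. Gpnmb, a glycoprotein of lipid-laden macrophages, was 1.01 ± 0.26 higher on the log2 scale (adjusted p = 0.0941) and the complement gene C1qb 1.05 ± 0.33 (adjusted p = 0.142). Of 11 tested, 10 were higher, 0 were called by edgeR and 3 were called by DESeq2, with a median of 0.42. In edgeR 4 had an unadjusted p below 0.05, beside 21.4% of all genes. The summed level was 1220 to 2060 CPM in controls and 2440 to 2700 CPM in ND1_cKO, without overlap. Gpnmb was the largest part of this sum in every library, at 799, 593 and 369 CPM in controls and 1170, 1290 and 1080 CPM in ND1_cKO. The separation of the sum is therefore not a statement about the whole list. The scavenger receptor gene Marco had 0 to 6 counts in every library, while the general markers Csf1r and Adgre1 were at -0.10 and 0.13. How far macrophage numbers account for the Mmp12 level was not tested.

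Mmp19, a broadly expressed metalloproteinase of the secreted kind, had 27.0, 19.3 and 18.3 CPM in controls and 31.9, 22.8 and 37.2 CPM in ND1_cKO. The genotypes overlapped because ND1_cKO replicate 2 lay below control replicate 1. Its log2 fold change was 0.51 ± 0.22 SE (1.42-fold, n = 3, adjusted p = 0.241) and ran from 0.34 to 0.71 with a library left out. Control replicate 1 was the highest control for Mmp19, Mmp7, Mmp12 and Timp3.

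Of the inhibitors, Timp1 differed most and Timp2 least. Timp1, the secreted inhibitor linked to fibrosis, had 29.1, 17.3 and 31.7 CPM in the controls and 63.9, 44.2 and 145 CPM in ND1_cKO. Every ND1_cKO library lay above every control, the lowest by 1.39 times, and the ND1_cKO libraries differed among themselves by 3.29 times. Means of 26.0 ± 7.65 and 84.4 ± 53.5 CPM (SD, n = 3) gave a 3.24-fold difference (log2 1.70 ± 0.48 SE) with an edgeR adjusted p of 0.122. Its log2 fold change was 1.05 without replicate 3 of ND1_cKO (adjusted p = 0.129). DESeq2 called Timp1 (adjusted p = 0.0339), and with the replicate number as a block edgeR gave 1.56 ± 0.22 (adjusted p = 0.0503).

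Timp2, the constitutive inhibitor and adaptor of MMP2 activation, had 668, 654 and 703 CPM in controls and 783, 711 and 888 CPM in ND1_cKO. The groups did not overlap, but the gap was narrow, the lowest ND1_cKO library being 1.01 times the highest control. The difference was 1.18-fold (log2 0.23 ± 0.11 SE, adjusted p = 0.265). Timp3, the inhibitor that stays bound to the matrix, had 1190, 1030 and 971 CPM in controls and 2420, 960 and 1230 CPM in ND1_cKO. A single library, ND1_cKO replicate 1, was high, and replicate 2 lay below every control. Timp3 was at 0.53 ± 0.33 on the log2 scale (adjusted p = 0.406) and at 0.03 without replicate 1 (adjusted p = 0.937).

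In the GRCr8 annotation Timp1 lies within Syn1 and Timp3 within Syn3, and Timp2 overlaps Cep295nl, and the strand setting of the counting is not given in the sources used here. Syn1 had 24 to 52 counts and Syn3 19 to 54 counts in a library, against at least 642 for Timp1 and 28201 for Timp3. Syn1 was at -0.48 ± 0.39 on the log2 scale (adjusted p = 0.512) and Syn3 at 0.29 ± 0.43 (adjusted p = 0.741). Syn2, which hosts Timp4 in other mammals, had 0 to 5 counts.

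**Figure D2:**
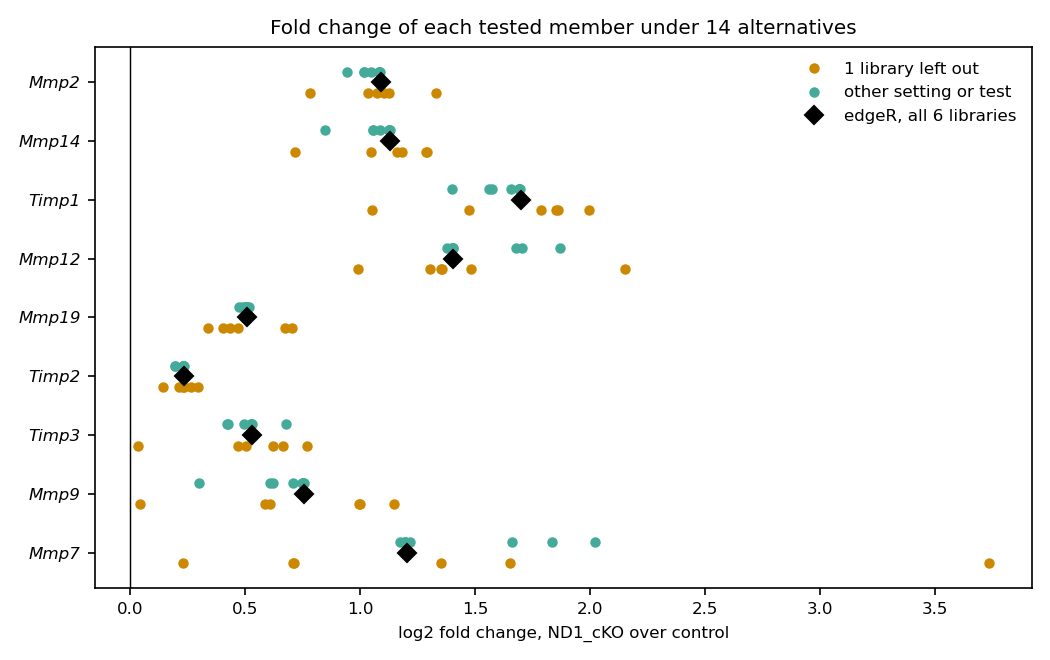
Log2 fold change of each tested gene with all 6 libraries (black diamonds), with each library left out in turn (orange) and under the other settings and tests (green). All values stay above 0, and the widest range is that of Mmp7, from 0.23 to 3.74.

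Ratios of 2 genes within a library do not depend on library size, and they were formed after the values above had been seen. They are log2 ratios of counts, so only their differences between libraries are read. Mmp2 over Timp2 was -2.37, -2.19 and -2.26 in controls and -1.38, -1.96 and -1.11 in ND1_cKO. Mmp14 over Timp2 was -3.50, -3.23 and -3.29 in controls and -2.84, -2.69 and -2.02 in ND1_cKO. In both, every ND1_cKO library was above every control, by 0.79 and 0.83 on average. Mmp14 over Timp3 overlapped between the genotypes, at -4.34, -3.88 and -3.76 in controls and -4.47, -3.12 and -2.49 in ND1_cKO, so that replicate 1 lay below every control. Measured against Timp1, the direction was the other one: Mmp2 over Timp1 was 2.47 ± 0.50 in controls and 1.93 ± 0.38 in ND1_cKO (SD, n = 3), and Mmp14 over Timp1 was 1.40 ± 0.53 and 0.90 ± 0.38, with overlap in each. Timp1 over Timp2 was higher in every ND1_cKO library, by 1.33 on average. Mmp14 over Mmp2 hardly differed in mean, at -1.07 ± 0.05 and -1.03 ± 0.38, and was more spread in ND1_cKO. No test was run on these ratios.

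**Figure D3:**
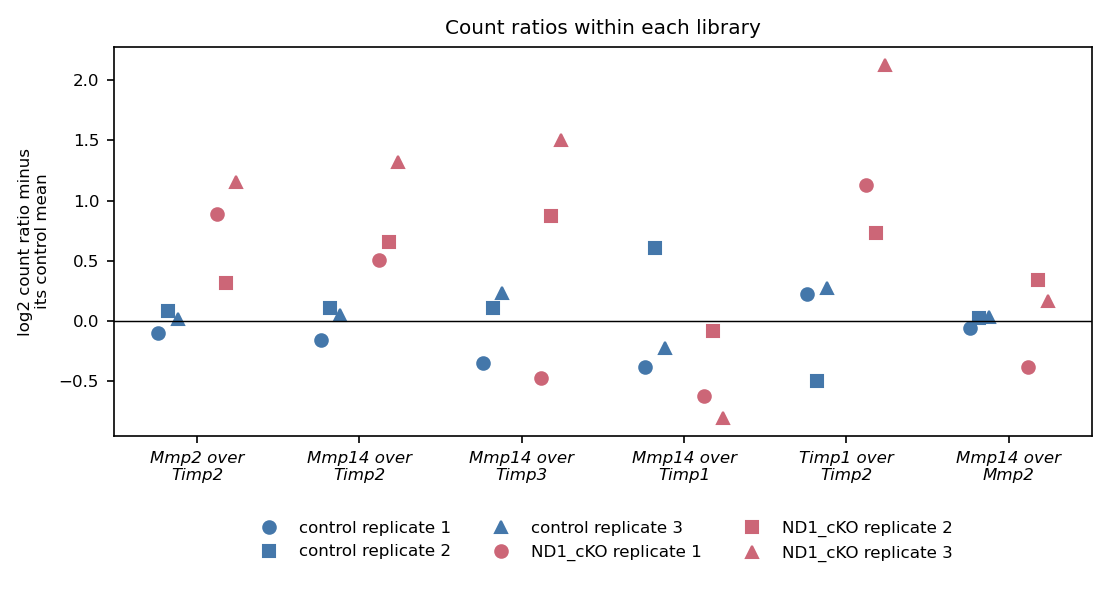
Log2 ratio of the counts of 2 genes in each library, minus the mean of that ratio in the 3 controls. The ND1_cKO libraries (red) are above all controls for Mmp2 and Mmp14 over Timp2 and for Timp1 over Timp2, and overlap with them for Mmp14 over Timp3, Timp1 and Mmp2.

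Of 16 other metalloproteinase and TIMP genes listed, 13 were in the table and 11 were tested. Of these 7 were higher and 4 lower, with a median of 0.24, and edgeR called 0. An unadjusted edgeR p below 0.05 was found for 5, beside 21.4% of all genes. Those 5 went both ways, with Mmp16 and Mmp25 lower and Mmp11, Mmp23 and Mmp28 higher. The median was -0.02 when ND1_cKO replicate 3 was omitted and 0.03 when the third control was omitted. Mmp16, a membrane-type metalloproteinase, had the lowest p, with 22.6, 27.3 and 27.5 CPM in controls and 18.8, 17.9 and 17.9 CPM in ND1_cKO (log2 -0.50 ± 0.11, adjusted p = 0.0586). Its groups did not overlap, in the direction opposite to Mmp14, the membrane-type enzyme among the 10. DESeq2 called Mmp16 as lower (adjusted p = 0.00313) and Mmp23 as higher (adjusted p = 0.0478), and limma-voom with library weights called Mmp16 alone (adjusted p = 0.0382). Mmp11, stromelysin 3, was at 0.44 ± 0.15 (adjusted p = 0.167) and Mmp25, a leukocyte metalloproteinase, at -0.49 ± 0.18 (adjusted p = 0.174). Mmp23, Mmp28, Mmp8, Mmp13 and Mmp15 are named after their values were seen. Mmp23 had 4.25, 3.35 and 3.55 CPM in controls and 6.43, 4.10 and 19.0 CPM in ND1_cKO, with overlap. By edgeR its log2 fold change was 1.40 ± 0.55 (adjusted p = 0.214), and 0.50 without ND1_cKO replicate 3 (adjusted p = 0.367). Mmp8, the neutrophil collagenase, had 3.57, 7.32 and 1.93 CPM in controls and 3.22, 6.68 and 17.8 CPM in ND1_cKO, so that, as for Mmp9, replicate 3 alone was above the controls. Mmp13, the interstitial collagenase of rodents, had 92, 117 and 2 counts in controls and 1, 48 and 0 counts in ND1_cKO (log2 -2.08 ± 1.60, adjusted p = 0.499). Mmp15 was called without ND1_cKO replicate 3 (0.42 ± 0.08, adjusted p = 0.0433).

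**Figure D4:**
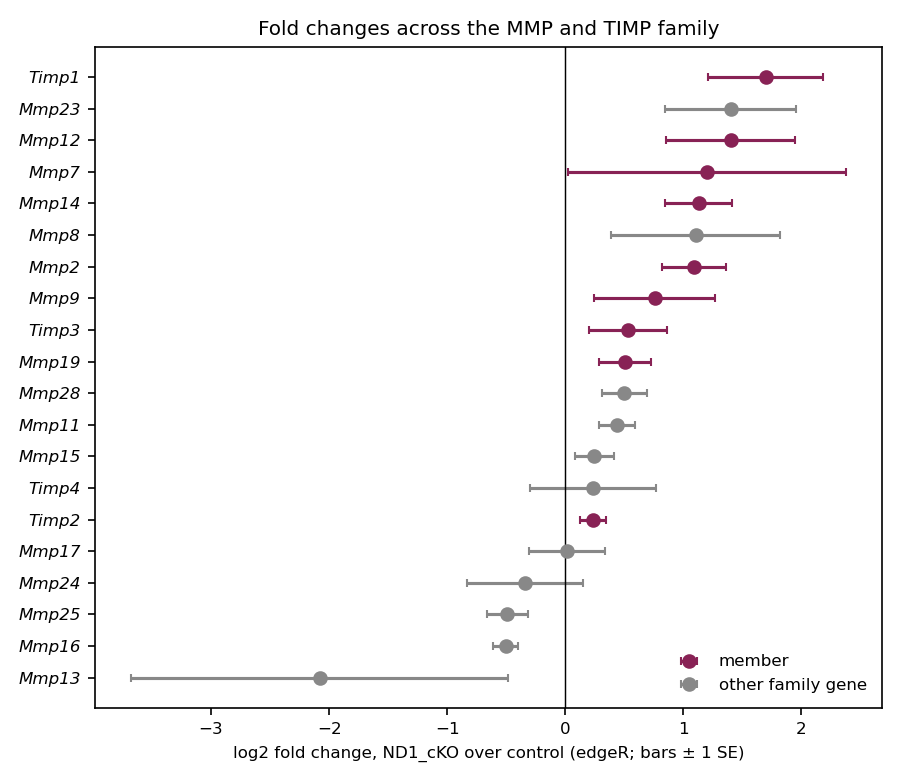
Log2 fold change (ND1_cKO over control, edgeR, bars 1 SE) of the 9 tested members (purple) and the 11 other tested family genes (grey), in order of size. The 9 members lie between 0.23 and 1.70, while 4 of the other genes lie below 0. Members and list were chosen with earlier results of these data known, so the contrast is a description only. With all 6 libraries 0 of the 20 passed the adjusted threshold.

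Inhibitors outside the TIMP family went both ways. Of 7 tested, including clearance receptors and serpins, edgeR called 1 higher and 1 lower, with a median of 1.83. A2m, a secreted trap for proteases of every class, rose from 0.865, 0.135 and 0.482 CPM in controls to 19.7, 6.00 and 26.4 CPM in ND1_cKO (adjusted p = 0.0368). Reck, a membrane-bound inhibitor of MMP2, MMP9 and MMP14, fell from 89.2, 97.4 and 104 CPM to 74.4, 70.7 and 71.0 CPM (log2 -0.43 ± 0.08, adjusted p = 0.0468). Serpine2, an inhibitor of serine proteases, was at 2.06 ± 0.44 (adjusted p = 0.0678). Neither A2m nor Reck passed when any control or ND1_cKO replicate 1 was omitted, and omitting ND1_cKO replicate 2 or replicate 3 left 1 higher and 0 lower. The replicate block left 1 higher and 0 lower, limma-voom called neither, and without the low-count filter 0 were higher and 1 lower. Endothelial genes were lower in the same libraries as Reck, with 8 of 8 markers negative (median -0.64), 4 called, and a summed level of 4550 to 5050 CPM in controls and 2810 to 3100 CPM in ND1_cKO. Among them Ptprb was at -0.89 ± 0.11 (adjusted p = 0.019), Flt1 at -0.66 ± 0.09 (adjusted p = 0.0292) and Tek at -1.08 ± 0.16 (adjusted p = 0.0311), and 0 of the 8 passed when ND1_cKO replicate 1, or the second or the third control, was omitted. Their part in the Reck level was not tested.

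Among genes that activate or induce metalloproteinases, 8 of 9 tested were higher and 1 rose by edgeR, with a median of 0.37. Plaur, the urokinase receptor that focuses plasmin formation at the cell surface, rose from 14.2, 13.5 and 11.0 CPM to 26.7, 21.5 and 36.5 CPM (log2 1.13 ± 0.21, adjusted p = 0.0438). Ctsk, which encodes the collagen-degrading cysteine protease cathepsin K, was at 2.51 ± 0.50 (adjusted p = 0.0592). Furin, the convertase that removes the propeptide of MMP14, was at 0.20 ± 0.08 (adjusted p = 0.196). Plaur did not pass when any control or ND1_cKO replicate 1 was omitted, nor with limma-voom or the replicate block.

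Substrates of these enzymes were higher in 15 of 16 tested, with a median of 1.19, and 2 rose by edgeR. Lama5, a laminin chain of basement membrane, rose from 118, 149 and 145 CPM in controls to 236, 215 and 296 CPM in ND1_cKO (log2 0.86 ± 0.15, adjusted p = 0.0391). Spp1, the secreted phosphoprotein osteopontin, which MMP3, MMP7 and MMP9 cleave, had 57.9, 31.2 and 10.3 CPM in controls and 413, 281 and 660 CPM in ND1_cKO (log2 3.76 ± 0.69, adjusted p = 0.0526). DESeq2 called 10 of the 16 and library weights 7. Omitting ND1_cKO replicate 2 gave 9 and omitting the first control 1, while 0 passed when ND1_cKO replicate 1, or the second or the third control, was omitted.

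The tested genes closest in pattern were found by the Euclidean distance between log2 levels, relative to the control mean, over the 6 libraries. Nearest to Mmp2 were LOC102546589 (distance 0.365), Ppic (0.416), a cyclophilin of the secretory pathway, and Slc16a3 (0.436), a lactate transporter. Nearest to Mmp14 were Rhd (0.274), with only 20 to 24 counts in each control, Dkk3 (0.309), a secreted glycoprotein, and Adamts9 (0.348), a matrix protease of a related family. Nearest to Timp1 were Ssc5d (0.335), LOC100362176 (0.388) and Col1a2 (0.502), a chain of type I collagen, whose levels were 415, 289 and 429 CPM in controls and 1130, 518 and 1900 CPM in ND1_cKO. Because these 9 genes were picked for closeness over the same 6 libraries, their likeness to the members was built in. This holds for the separation, since in each of them every ND1_cKO library was above every control, as in Mmp2, Mmp14 and Timp1. None of the 9 passed by edgeR, with adjusted p from 0.0745 for Slc16a3 to 0.189 for Rhd.

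Mesothelial and smooth muscle genes are given because ND1_cKO replicate 3 carries the highest level of 8 of the 9 tested members. The summed level of 4 mesothelial markers was 55.9, 64.2 and 182 CPM in controls and 100, 85.0 and 493 CPM in ND1_cKO, highest in replicate 3, with 0 of 4 called and a median of 1.22, which was -0.17 without that library. Msln was at 1.60 ± 0.78 (adjusted p = 0.304), Wt1 at 2.48 ± 1.29 (adjusted p = 0.329) and Lrrn4 at 0.85 ± 0.88 (adjusted p = 0.628). Smooth muscle genes had a summed level of 779 to 1150 CPM in controls and 641 to 1460 CPM in ND1_cKO, with 0 of 5 called and a median of 0.12 (-0.39 without replicate 3), Myh11 being at -0.34 ± 0.21 (adjusted p = 0.395), Des at 0.49 ± 0.47 (adjusted p = 0.589) and Tagln at 0.26 ± 0.37 (adjusted p = 0.722). For both lists 0 genes had an unadjusted p below 0.05. The part of these tissues in the levels of replicate 3 was not tested.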

How the data were processed

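The authors deposited a table of unnormalised counts of reads for each gene symbol, with a column for each library, matched to samples by the column names in their labels; 0 columns were left over. The submitters' processing notes list HISAT2, HTSeq, fastp, R 4.3.3 and DESeq2, with no role or order. Build, annotation and strand setting were not given in the sources used here. The series description treats each library as a separate animal, and no pair of libraries agreed within sampling noise (chi-square per degree of freedom at least 23.7).

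From the deposited counts, all genes were fitted with edgeR 4.0.16 in R 4.3.3: TMM scaling, filterByExpr (16548 genes), robust quasi-likelihood F test, two-sided, genotype as the only factor, Benjamini-Hochberg adjustment, threshold 0.05. The study itself also asked for a log2 fold change beyond 1 in size. The SE of a log2 fold change is its size divided by the square root of F; SDs are between rats. The patterns compared by distance used log2 CPM with a prior count of 2. The fit was also run on simulated counts without an outlying library, so that run does not bear on how calls change when a library is omitted. Alternatives were DESeq2 1.42.0, limma 3.58.1 voom with and without library weights, other scalings and filters, each library left out, and the replicate number as a block.

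The members and lists were chosen with earlier results of these data known. Named genes were all members, the 3 lowest p in each other list, and the 3 genes nearest in pattern to each of the 3 members with the lowest p. Further markers of the cell type lists are named as well, some after their values were seen. Listed genes absent from the table under that symbol, such as Mmp1, Mmp21 and Mmp27, were not analysed here. The values of 1 other listed gene are not reported here. Sequences are RefSeq's (GRCr8); motifs were searched with Python 3.11.15.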

Additional observations from a re-analysis of the deposited data

How the results depend on the processing

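Each of the 9 tested members kept a positive log2 fold change in all 14 alternatives. The count of members called as higher, 0 with all libraries, was 3 with DESeq2 and 0 to 1 with a library left out, at 1 without ND1_cKO replicate 2 (Mmp2) and 1 without ND1_cKO replicate 3 (Mmp14); the count called as lower was 0 throughout. Over all genes, 188 were called higher and 212 lower. These counts were 988 and 920 with DESeq2, 474 and 490 with limma-voom and library weights, and between 0 and 250 higher and 0 and 245 lower with a library left out, the lowest without control replicate 2. They were also low without control replicate 3 (7 and 2), ND1_cKO replicate 1 (18 and 5) and control replicate 1 (110 and 74).

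The replicate numbers share no stated litter or batch. Deviations from the group means correlated over genes by 0.165, 0.024 and 0.135 for numbers 1, 2 and 3, so the samples were not treated as paired, although every library correlated best with its own number. With the replicate block 145 genes were called higher and 117 lower, and 0 members in either direction.

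Other family genes changed sign in places. Mmp17, at 0.01, was between -0.49 and 0.21 with a library left out, at -0.030 with total counts only, -0.10 with limma-voom, -0.33 with library weights, -0.10 with the replicate block, -0.01 without control replicate 1 and -0.49 without ND1_cKO replicate 3. Mmp24, at -0.34, was between -0.79 and 0.047 with a library left out, above 0 without control replicate 2. Timp4, at 0.24, was between -0.10 and 0.56 with a library left out, below 0 without control replicate 3 and ND1_cKO replicate 3. The cause was not tested. Depth limits Mmp3, at 0 to 3 counts a library. Mmp7 was also scarce, with 4 to 145 counts, and its control libraries differed by 16.9 times in CPM.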
